A study of Mus musculus with 18 samples.

Results

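The 10 genes described here are the 4 TEAD transcription factor genes (Tead1, Tead2, Tead3 and Tead4), the genes of their co-activators YAP and TAZ (Yap1 and Wwtr1), and 4 genes that this pair of proteins is known to switch on (Ccn1, Ccn2, Ankrd1 and Amotl2). They were taken by symbol. All 10 of the 10 were found among the 35734 genes of the authors' deposited fibroblast table, and all 10 among the 21887 protein-coding gene windows of the retinal data. The fibroblasts were mouse embryonic fibroblasts of the line R26-M2rtTA, strain C57BL/6, which carries a doxycycline-dependent activator. They were infected with doxycycline-inducible lentiviruses for the neuronal factors Brn2 and Myt1l, either alone or together with those for Ikzf1 and Ikzf4, and all libraries of both groups were taken after 48 h of doxycycline, with 3 RNA-seq libraries per group. The retinal data were 1 multiome ATAC library (open chromatin of single nuclei) per group. The control carried mCherry and came from retina labelled Muller glia, from C57BL/6 mice of the line GLAST-CRE ERT2 ; RosaYFP, in which the promoter of the glial glutamate transporter gene drives a tamoxifen-dependent Cre. The Ikzf1/4 library is known only by that name, since its labels repeat the title in place of tissue, line and strain. Both are described with tamoxifen and 14 days, while the run names in the file headers carry 48 h, and which of these applies is not settled.

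YAP and TAZ are proteins that shuttle between cytoplasm and nucleus. In the nucleus they bind TEAD factors, which hold the DNA, and so activate genes of growth, matrix and the cytoskeleton. In the Hippo cascade the kinases Mst1 and Mst2 activate the kinases Lats1 and Lats2, which phosphorylate YAP and TAZ and keep them out of the nucleus. Cells on stiff or open ground, as fibroblasts in culture are, have much of both proteins in the nucleus. In the retina YAP is known from Muller glia, the radial support cells that span its layers, where it takes part in the response to injury. Much of this control acts on the proteins, which neither RNA-seq nor ATAC-seq measures.

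TEAD factors bind the letters GGAATG, or CATTCC on the other strand. RefSeq promoters (GRCm38.p6, 250 bases before to 50 after a start) were found for 7 of the 10 genes, all but Tead1, Tead4 and Ccn2. In 6 of these 7 the promoter of the first listed start held the letters at least once, while 14.6% of the 27025 genes with a promoter of this length did. Such a match is a string of letters, not a shown binding site. The following 250 bases before the start, written 5′ to 3′ on the gene's strand with matches in capitals, belong to the 4 genes whose starts are drawn by cluster for the retina, to Ankrd1, and to Tead2 as the promoter with no match.
Ccn1, chr3:145649986-145650235, minus strand: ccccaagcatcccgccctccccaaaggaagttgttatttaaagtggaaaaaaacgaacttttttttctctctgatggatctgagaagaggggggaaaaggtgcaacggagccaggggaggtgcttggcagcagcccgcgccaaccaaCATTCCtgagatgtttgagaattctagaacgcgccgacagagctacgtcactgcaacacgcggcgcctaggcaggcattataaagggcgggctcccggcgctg
Amotl2, chr9:102717554-102717803, plus strand: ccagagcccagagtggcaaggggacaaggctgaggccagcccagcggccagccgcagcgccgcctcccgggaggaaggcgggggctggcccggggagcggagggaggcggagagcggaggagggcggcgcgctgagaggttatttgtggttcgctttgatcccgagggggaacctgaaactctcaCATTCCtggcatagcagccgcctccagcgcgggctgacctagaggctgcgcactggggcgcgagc
Wwtr1, chr3:57575911-57576160, minus strand: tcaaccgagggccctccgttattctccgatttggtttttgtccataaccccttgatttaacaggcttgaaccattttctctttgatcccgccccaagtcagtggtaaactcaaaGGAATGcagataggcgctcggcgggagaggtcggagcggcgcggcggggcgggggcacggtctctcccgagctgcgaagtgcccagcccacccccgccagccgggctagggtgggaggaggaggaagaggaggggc
Yap1, chr9:8004597-8004846, minus strand: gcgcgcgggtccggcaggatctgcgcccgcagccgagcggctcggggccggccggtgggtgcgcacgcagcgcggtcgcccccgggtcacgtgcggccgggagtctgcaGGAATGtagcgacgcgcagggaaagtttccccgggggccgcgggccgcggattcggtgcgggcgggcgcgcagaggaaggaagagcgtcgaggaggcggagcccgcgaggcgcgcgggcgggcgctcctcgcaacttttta
Ankrd1, chr19:36119845-36120094, minus strand: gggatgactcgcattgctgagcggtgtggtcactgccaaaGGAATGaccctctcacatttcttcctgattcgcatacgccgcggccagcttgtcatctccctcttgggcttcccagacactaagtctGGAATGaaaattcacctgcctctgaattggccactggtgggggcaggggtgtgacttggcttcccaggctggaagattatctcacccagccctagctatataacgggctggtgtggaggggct
Tead2, chr7:45215542-45215791, plus strand: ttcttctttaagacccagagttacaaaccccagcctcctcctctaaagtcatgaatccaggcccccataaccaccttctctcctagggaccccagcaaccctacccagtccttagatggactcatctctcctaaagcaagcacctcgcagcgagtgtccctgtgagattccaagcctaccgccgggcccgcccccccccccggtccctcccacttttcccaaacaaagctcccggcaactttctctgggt

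Counted from the start, with the first transcribed base as 1, the match lay at -103 to -98 in Ccn1, at -65 to -60 in Amotl2, at -136 to -131 in Wwtr1 and at -141 to -136 in Yap1. Ankrd1 held the letters at -210 to -205 and again at -123 to -118, and 1.35% of promoters held them at least 2 times. Tead3 has 3 listed starts. The promoter of the second start held the letters 3 times, which 0.131% of all 32851 listed promoters did, that of the first start 1 time and that of the third not at all. The letters TGGGAA (or TTCCCA), the core of the motif that Ikaros family factors bind, were in 3 of the 7 first promoters (Tead2, Tead3 and Ankrd1) and in 25.5% of all such promoters. The Ikaros letters share the run GGAA or TTCC with the TEAD letters, and 1.58% of promoters held overlapping matches of both. None of the 7 held the AP-1 letters TGANTCA, which 7.93% of promoters did.

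In fibroblasts 5 of the 10 genes passed at a DESeq2 adjusted p under 0.05 according to the authors' deposited table, with Tead1 and Tead3 higher and Ccn2, Tead2 and Ankrd1 lower with Ikzf1 and Ikzf4. The share of all 16757 tested genes called in that table was 30.6%, with 15.3% higher and 15.4% lower. For the 10 genes the authors' deposited table has a median log2 fold change of -0.015, and that of all tested genes was -0.0004. The 6 RNA-seq libraries held between 34966344 and 44270426 estimated reads. The deposited table gives for each gene a mean over all libraries and a change, not the 6 values. Values per library of these genes were not analysed, because the sources used here did not include a pairing of transcripts with genes. Nothing in the labels says that libraries came from separate cultures, so the p-values measure the spread between these libraries, which may be technical. In these bulk cultures, fewer cells of a type and less RNA per cell cannot be told apart.

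Among the TEAD genes, which encode the DNA-binding part of the complex, Tead1 (ENSMUSG00000055320) had a mean of 16768.4 normalised counts, not scaled to gene length, in the authors' deposited table. Its log2 fold change there was 0.30 (SE 0.07, DESeq2 adjusted p 0.000439), which is 1.23 times the level without Ikzf1 and Ikzf4. Tead3 (ENSMUSG00000002249) was also higher in the authors' deposited table, by 0.23 (SE 0.07, DESeq2 adjusted p 0.00425). Tead2 (ENSMUSG00000030796), known from the early embryo and neural progenitors, moved the other way. Its log2 fold change in the authors' deposited table was -0.84 (SE 0.10, DESeq2 adjusted p 2.16e-14), to 55.7% of the level without the added factors, at a mean of 1027.7 normalised counts. Tead4 (ENSMUSG00000030353), best known for its part in the first placental lineage, had a mean of 109.1 normalised counts, and its value of 0.05 (SE 0.21, DESeq2 adjusted p 0.898) per the authors' deposited table has an interval from -0.36 to 0.46. The 4 TEAD genes thus gave 2 values above 0, 1 below and 1 not resolved.

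The genes of the co-activators did not pass the threshold. For Yap1 (ENSMUSG00000053110) the authors' deposited table gives -0.03 (SE 0.06, DESeq2 adjusted p 0.757), with a 95% interval of -0.14 to 0.08. For Wwtr1 (ENSMUSG00000027803), which encodes TAZ, it gives 0.03 (SE 0.05, DESeq2 adjusted p 0.734), with an interval of -0.07 to 0.13 from the authors' deposited table.

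The 4 target genes split. Ccn2 (ENSMUSG00000019997), which encodes the secreted matrix protein CTGF, had a mean of 31783.4 normalised counts and a log2 fold change of -1.09 (SE 0.08, DESeq2 adjusted p 1.96e-43) per the authors' deposited table. The value corresponds to 47.0% of the level without Ikzf1 and Ikzf4. Of the 746 tested genes with a mean of at least 10000 normalised counts, 210 were called lower in the authors' deposited table, and 2, Scpep1 (-1.31) and the collagen gene Col3a1 (-1.29), had a lower log2 fold change than Ccn2. Ankrd1 (ENSMUSG00000024803), which encodes a nuclear ankyrin-repeat protein of stretched muscle and of wounds, was lower by a smaller amount, with -0.42 (SE 0.10, DESeq2 adjusted p 7.75e-05) per the authors' deposited table. Ccn1 (ENSMUSG00000028195), which encodes the CCN2 relative CYR61, was at -0.004 (SE 0.09, DESeq2 adjusted p 0.98) per that deposited table, with an interval of -0.18 to 0.17 at a mean of 11088.9. Amotl2 (ENSMUSG00000032531), whose angiomotin-family product binds YAP and holds it back, was at -0.03 (SE 0.08, DESeq2 adjusted p 0.854) per the authors' deposited table. The intervals of Ccn1 and Ccn2, both plotted with the other genes by log2 fold change, do not overlap.

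**Figure D1:**
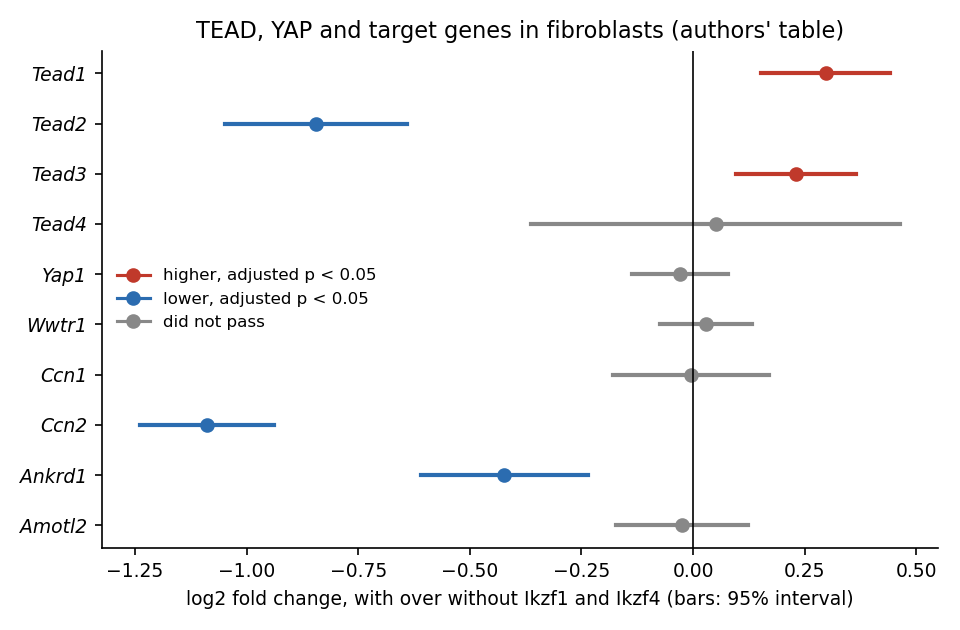
Log2 fold change of the 10 genes with over without Ikzf1 and Ikzf4 in fibroblasts, from the authors' deposited table, with bars of 95% interval. Ccn2 (-1.09), Tead2 (-0.84) and Ankrd1 (-0.42) lie below 0, Tead1 (0.30) and Tead3 (0.23) above, and the bars of the other 5 cross 0.

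Since Ccn1 and Ccn2 parted, the other genes of their family, secreted cysteine-rich matrix proteins, were read as well, a choice made after their values were seen. According to the authors' deposited table, of the 5 tested family members 4 were lower, as were 15.4% of all tested genes. Ccn5 had -1.27 (SE 0.13, DESeq2 adjusted p 5.43e-20) per the authors' deposited table, Ccn3 had -0.92 and Ccn4 had -0.36, and Ccn6, with a mean of 0.3 normalised counts, was not tested. Ccn1 was thus the family member that did not pass among those tested.

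The Hippo list holds 27 genes of the kinases, their adaptors and upstream regulators, of which 25 were tested and 2 (Vgll1 and Vgll2) had a mean of 0. The authors' deposited table has 8 of them higher, 5 lower and 12 not past the threshold, against the background of 30.6%, with a median log2 fold change of 0.031. The kinase genes divided. Lats1 was higher by 0.22 and Lats2 by 0.25 (SE 0.06 and 0.07, DESeq2 adjusted p 0.00132 and 0.00189) in the authors' deposited table. Stk3, which encodes the upstream kinase Mst2, was lower at -0.23 (SE 0.06, DESeq2 adjusted p 0.00146) per the same deposited table, as was Sav1, the gene of the scaffold that binds it, at -0.30 (SE 0.07, DESeq2 adjusted p 0.000129). Among upstream regulators the authors' deposited table has Wwc2 at 0.32, the phosphatase gene Ptpn14 at 0.34 and the atypical cadherin gene Dchs1 at 0.46, all higher. It has the FERM-domain gene Frmd6 at -0.30 and the kinase gene Taok2 at -0.21, both lower in the authors' deposited table. Vgll3, whose product competes with YAP for TEAD factors, had the lowest value of the list in the authors' deposited table, -0.68 (SE 0.06, DESeq2 adjusted p 3.81e-28).

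The other list holds the 18 further genes of a 22-gene signature of YAP and TEAD targets, and shares Lats2 and Ptpn14 with the Hippo list. All 18 were tested in the authors' deposited table, where 7 were higher, 5 lower and 6 did not pass, against 15.3% higher and 15.4% lower over all tested genes, with a median log2 fold change of -0.029. The lower genes in the authors' deposited table were the tissue factor gene F3 (-0.75), the RNA-binding protein gene Rbms3 (-0.50), Fjx1 (-0.86), the membrane repair gene Myof (-0.36) and Ccdc80 (-0.15), with DESeq2 adjusted p from 1.65e-18 for F3 to 0.0467 for Ccdc80. The higher genes with the smallest p in the authors' deposited table were the transcription factor gene Foxf2 (0.97), Crim1 (0.35), Ptpn14 (0.34), the stress gene Gadd45a (0.61) and Dock5 (0.34), with DESeq2 adjusted p from 3.35e-06 for Foxf2 to 0.00128 for Dock5. Foxf2 and Gadd45a were measured at means of 102.2 and 408.3 normalised counts. Both lists thus held genes called in each direction.

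**Figure D2:**
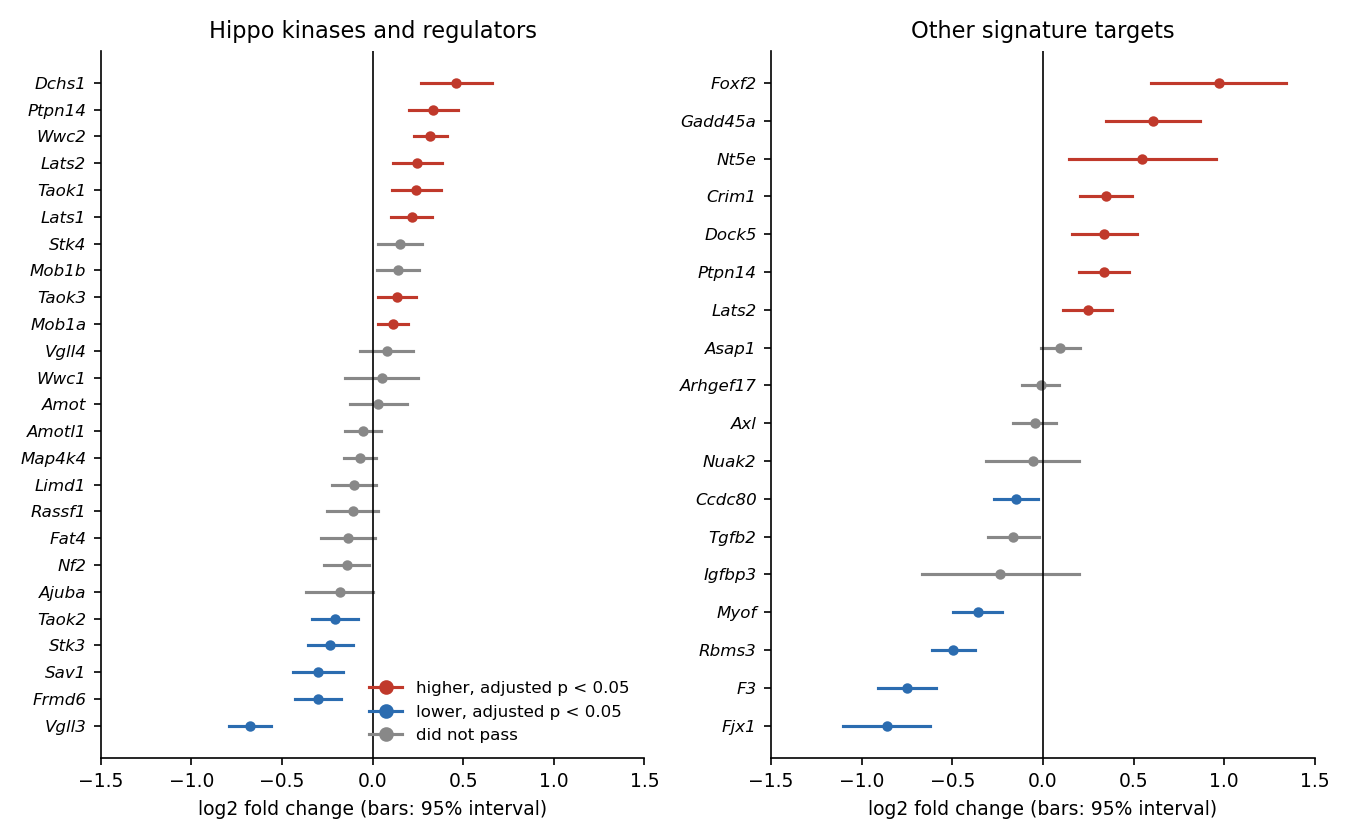
Log2 fold change with over without Ikzf1 and Ikzf4, from the authors' deposited table, of the 25 tested genes of the Hippo list (left) and the 18 other signature targets (right), ordered by value, with bars of 95% interval. Both panels hold genes on both sides of 0, from -0.68 (Vgll3) to 0.46 (Dchs1) and from -0.86 (Fjx1) to 0.97 (Foxf2).

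The added factors were checked in the authors' deposited table, where Ikzf4 had a log2 fold change of 8.54 and Ikzf1 one of 7.76. Of the factors given to both groups, Myt1l was also higher there, at 0.50 (SE 0.17, DESeq2 adjusted p 0.0157), while Pou3f2, the gene of Brn2, was at -0.055 (DESeq2 adjusted p 0.689) per the authors' deposited table. Over all tested genes 15.4% were lower and 15.3% higher. Of 8 fibroblast markers 6 were lower there, Dcn most (-1.77), and of 3 pericyte markers 2 were lower (Rgs5 -0.62 and Pdgfrb -0.32) in the authors' deposited table. All 8 markers of macrophages and microglia were detected, at means of 43.2 to 2579.7 normalised counts, and 1 of them, C1qa, was called lower, at -0.17 in the authors' deposited table. All 8 had a log2 fold change below 0 there, with a median of -0.166. Of 3 tested epithelial markers 1 was higher, Epcam, by 0.64 at a mean of 41.0 normalised counts in the authors' deposited table. Of 4 neuron markers, Ina was higher (1.19), Tubb3 was lower (-0.42) and 2 did not pass in that deposited table. The part of the Myt1l and marker changes in the fall of Ccn2, Tead2 and Ankrd1 was not tested.

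In the retina the libraries held 52119123 unique fragments (control) and 29358834 (Ikzf1/4). Cells were 1868 and 682 barcodes with a median of 6210 and 10869 fragments, and the libraries shared 3 cell barcodes. Cells were clustered without the windows of the 10 genes, of both lists and of any gene overlapping them, so that the clusters do not rest on the values of those genes. The Muller glia markers, Gfap and Pax2 were not left out. Their ratios between clusters, given below, are thus not independent of the clustering or of the cluster names. A window spans the gene and 2 kb on both sides, and its level is given as its fragments scaled to the fragments in the same cells, per 1000000 of them (CPM). There were 9 clusters. Clusters 1 and 3 were Muller glia-like, with 8 of 8 Muller glia markers over 1.5-fold against the rest in each, though the 10 leading genes of neither held any of those 8, and those of cluster 3 held the astrocyte marker Gfap. Together they held 33.7% of control cells (95% exact binomial interval 31.5 to 35.9) and 18.9% of Ikzf1/4 cells (16 to 22.1), so that most control nuclei, though labelled Muller glia, fell in other clusters. The rest were bipolar-like (clusters 0 and 4), cone-like (2), rod-like (5), microglia-like (6), amacrine-like (8) and unnamed (7). Cluster 7 stood apart in depth, with a median of 33106 fragments in its 26 Ikzf1/4 cells. In its 58 control cells the median gene-end enrichment was 6.26, the lowest of the control clusters. Whether its barcodes are single nuclei was not tested. With 1 library per group there is no replicate and no test. Intervals cover counting error only, and a window was called past a fold of 1.5 if it held at least 100 fragments.

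Ccn1 (chr3:145646971-145649985) and Ccn2 (chr10:24595442-24598683) were open mainly in the Muller glia-like clusters. In the control library 83.2% of all Ccn1 window fragments (366 of 440) lay in those cells, and in the Ikzf1/4 library 74% (196 of 265). For Ccn2 the shares were 77.3% (167 of 216) and 69.3% (70 of 101). Against all other cells of the same library the Muller glia-like level of Ccn1 was 12.1 times theirs (95% counting interval 9.42 to 15.8) in the control library and 16.7 times (12.6 to 22.3) in Ikzf1/4 cells. The Ccn2 ratios were 8.35 (6.04 to 11.7) and 13.3 (8.58 to 21). The other cells include the unnamed cluster 7. In the Ikzf1/4 library it held 39 of the 69 Ccn1 and 16 of the 31 Ccn2 fragments of other cells.

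Amotl2 (chr9:102717091-102733418), Wwtr1 (chr3:57455644-57575910) and Tead1 (chr7:112679356-112906784) had the same direction at smaller size. The ratio of Muller glia-like to other cells was 3.35 (2.97 to 3.78) and 3.76 (3.21 to 4.39) for Amotl2 in the control and the Ikzf1/4 library. It was 2.7 (2.35 to 3.11) and 3.32 (2.75 to 4) for Wwtr1, and 1.64 (1.51 to 1.79) and 1.84 (1.63 to 2.08) for Tead1. So 5 of the 9 windows with at least 100 fragments were over 1.5-fold in both libraries, where 7.41% of 16297 windows were. Of these 5, Ccn2 had 49 control and 31 Ikzf1/4 fragments outside the Muller glia-like cells. Only with the fragments of the cells in which it is high did Ccn2 reach 100. None of the 9 was under the inverse of 1.5 in both, where 18.3% of windows were. The median ratio over all windows was 0.83 in the control library and 0.81 in Ikzf1/4 cells, so a ratio of 1 lies above the middle of the windows.

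Yap1 (chr9:7931999-8004638), Tead3, Tead4 and Tead2 did not pass in both libraries. Yap1 gave 1.31 (1.09 to 1.57) and 1.57 (1.2 to 2.05), Tead4 gave 1.06 (0.863 to 1.3) and 1.42 (1.06 to 1.87), and Tead3 gave 1.54 (1.31 to 1.81) and 0.943 (0.741 to 1.19). Tead2 was the lowest, at 0.861 (0.664 to 1.11) and 0.369 (0.198 to 0.632), the latter from 14 fragments in Muller glia-like cells. The window of Tead3 holds parts of Tulp1, a gene of photoreceptors, and Rpl10a, and that of Tead2 holds part of Cd37, so their fragments cannot be assigned to 1 gene. The windows of Ccn1, Ccn2 and Wwtr1 overlap the listed genes Gm17501, Gm15270 and Gm16016, the first of which also lies within 500 bp of the Ccn1 start. Ankrd1 had 48 fragments in all cells of both libraries and was not counted.

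**Figure D3:**
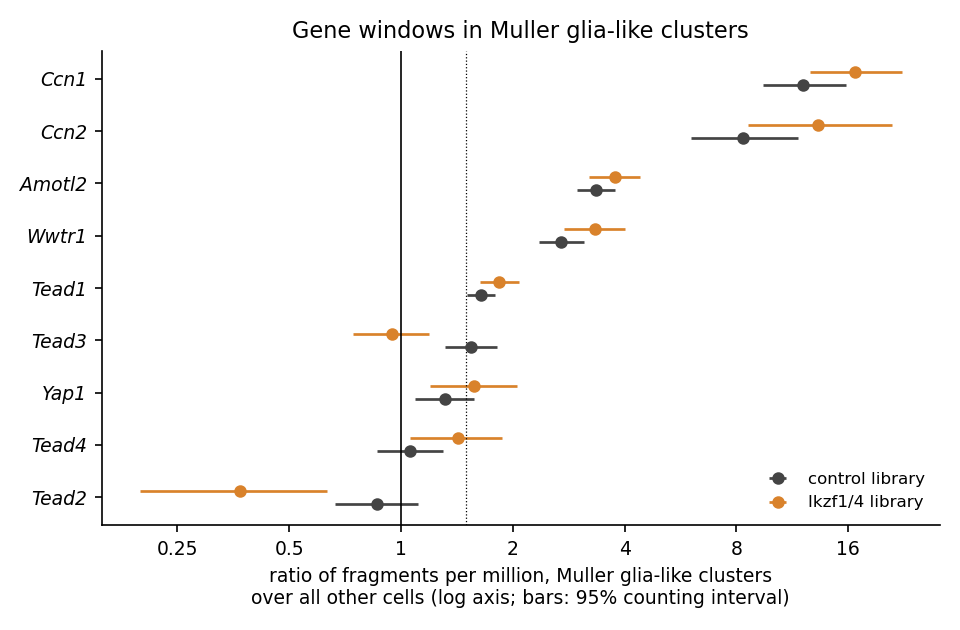
Ratio of window CPM in the Muller glia-like clusters over all other cells of the same library (log axis) for the 9 counted genes, in the control and the Ikzf1/4 library, with 95% counting intervals and a dotted line at 1.5. Ccn1 and Ccn2 lie farthest right at 8.35 to 16.7, and Tead2 lies farthest left.

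Per kilobase of window, in all cells of the control library, Ccn1 was the most open at 4.65 CPM per kb, followed by Amotl2 at 4.04, Ccn2 at 2.21, Tead3 at 2.09 and Tead2 at 1.12. The long genes Tead1 (0.721), Yap1 (0.522), Wwtr1 (0.48) and Tead4 (0.432) came next, and Ankrd1 was last at 0.143 CPM per kb. The order of the first 2 and of the last was the same in the Ikzf1/4 library, where Tead3 (3.02 CPM per kb) stood above Ccn2 (1.58). Windows ran from 7.0 kb (Ccn1) to 231.4 kb (Tead1), and the part of length in this order was not tested. At equal length, within 500 bp of the start in all control cells, Ccn1 was not the highest. Amotl2 had 31.8 CPM per kb there, Tead3 17.7, Wwtr1 15.9, Ccn1 12.4, Yap1 9.62 and Tead2 2.22. In control cluster 0 the Ccn1 window was at 0.299 CPM per kb and that of Amotl2 at 2.03.

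By cluster, the Ccn1 level was 80.6 CPM in cluster 1 and 123.5 in cluster 3 of the control library, and 101.1 and 224.8 in the Ikzf1/4 library. In the bipolar-like cluster 0 it was 2.10 and 4.62 CPM, and in the cone-like cluster 5.37 and 3.07. Among named clusters of at least 50 cells outside the Muller glia-like pair it reached at most 13.1 CPM, in control microglia-like cells, while the unnamed cluster 7 had 39.5 CPM in the control. Ccn2 stood at 41.8 and 44.8 CPM in clusters 1 and 3 of the control and at 45.9 and 66.9 in the Ikzf1/4 library, with at most 6.63 CPM in the other named clusters of at least 50 cells. Among sums of at least 50 cells, no interval of a Muller glia-like cluster overlapped that of another named cluster for these 2 genes.

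Wwtr1 had a second place of openness. It was at 111.1 and 100.7 CPM in clusters 1 and 3 of the control, at 96.1 (72.4 to 125.1) in the rod-like cluster, and at 23.7 to 50.7 in the other named clusters. In the Ikzf1/4 library the rod-like level of Wwtr1 was 82.1 CPM (67.7 to 98.6), below the 141.6 and 141.2 of the Muller glia-like clusters. In the control the rod-like and Muller glia-like levels of Wwtr1 do not differ beyond their intervals. Yap1 was highest in cluster 3 in both libraries, at 69.4 (55.2 to 86.1) and 72.5 (51.5 to 99.1) CPM, followed by the bipolar-like cluster 0 at 50.1 (42.8 to 58.3) and 55.5 (44.2 to 68.7), whose intervals overlap those of cluster 3. In the Muller glia-like cluster 1 Yap1 was at 38.9 (31.8 to 47.0) and 44.5 (30.6 to 62.5) CPM. These values were below those of cluster 0, but their intervals overlap. Within 500 bp of the Yap1 start the order was reversed, at 14.3 and 13.5 CPM in cluster 1 and 6.29 and 5.94 in cluster 0. Tead1 was open in glial and neuronal clusters alike, at 228 and 237.7 CPM in clusters 1 and 3 of the control and at 89.8 (cluster 4) to 190.3 (cone-like) in its neuronal clusters, and lowest among clusters of at least 50 cells in control microglia-like cells at 41.7 CPM.

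**Figure D4:**
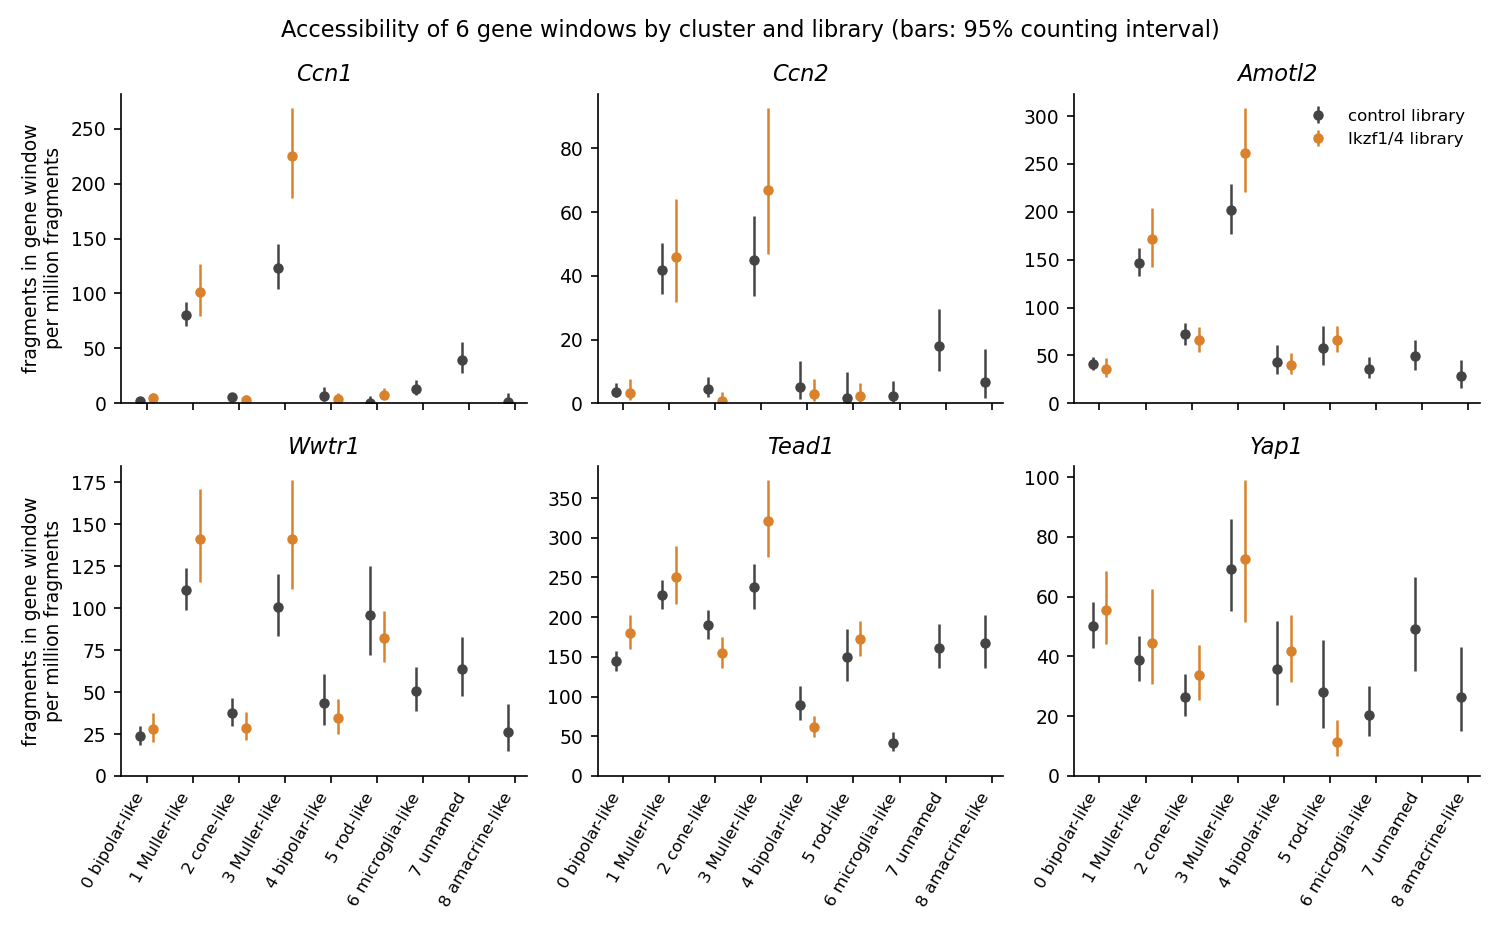
Level (CPM) in the gene windows of 6 genes by cluster, for sums of at least 50 cells of the control and the Ikzf1/4 library, with 95% counting intervals. Ccn1 and Ccn2 stand near 0 outside clusters 1, 3 and 7, Wwtr1 is also high in rod-like cells, and Tead1 and Yap1 are spread over the neuronal clusters.

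The Muller glia-like clusters differed from each other for a part of the genes. Cluster 3 was above cluster 1 by 1.53 times (1.23 to 1.9) in the control library and 2.22 times (1.65 to 3.01) in Ikzf1/4 cells for Ccn1, and by 1.79 (1.32 to 2.4) and 1.63 (0.998 to 2.67) for Yap1. These 2 of the 8 counted genes were over 1.5-fold in both libraries, where 1.75% of 11112 windows were. Amotl2 gave 1.38 and 1.53, while Wwtr1 gave 0.906 and 0.997. Ccn2 gave 1.07 and 1.46, with intervals that include 1. Of the 8 Muller glia markers 5 were above 1 in both libraries, from Slc1a3 (1.05 and 1.23) to Glul (1.81 and 1.5), Rlbp1 was below 1 in both (0.927 and 0.886), and Aqp4 (1.03 and 0.578) and Kcnj10 (0.962 and 1.29) lay on both sides. Gfap, the intermediate filament gene of astrocytes and of injured Muller glia, gave 1.63 (0.924 to 2.83) and 6.06 (3.42 to 11.4), while the other astrocyte marker, Pax2, gave 1.09 (0.714 to 1.65) and 0.689 (0.288 to 1.54).

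Around the starts of Ccn1, Amotl2, Wwtr1 and Yap1, fragment ends (transposase cuts) were counted per bin of 100 bp and are given on the same CPM scale. Unlike the levels above, they pool both libraries. The clusters differ in their mix of the libraries, and the part of that in these values was not tested. At Ccn1, where the CATTCC match ends 98 bases before the start, the 100 bp before the start had 22.8 CPM of ends in cluster 1 and 36.6 in cluster 3, the highest bin of each, and at most 0.518 in clusters 0, 2 and 5. The start of Amotl2 was open in all 9 clusters, with a highest bin of 8.45 in cluster 0, 17.6 in cluster 2, 17.9 in cluster 5, 22.8 in cluster 1 and 37.2 in cluster 3, in each within the 200 bp before the start. A further Amotl2 site lay 600 to 700 bp after the first listed start, with 15.8 and 18.0 CPM of ends in clusters 1 and 3 and at most 4.63 elsewhere. At Wwtr1 the highest bin lay at the 100 bp before the start in cluster 1 (16.1) and the 100 bp after it in cluster 3 (17.4). It lay 100 to 200 bp after the start in rod-like cells (10.7), and likewise in clusters 0 (2.68), 2 (4.66) and 4 (2.33). These bins held only 21, 13, 18 and 5 fragment ends, against 56 in cluster 1 and 30 in cluster 3. Whether the place of the Wwtr1 peak differs between clusters was not tested. The highest Yap1 bin lay in the 200 bp before its start in clusters 0 to 7, at 15.7 in cluster 3, 7.78 in cluster 1 and 4.33 in cluster 0. In clusters 5 and 6 that Yap1 bin held only 3 and 4 ends.

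Levels were also counted within 500 bp on both sides of the first listed start alone. Of the 5 starts with at least 100 fragments, 4 were over 1.5-fold in Muller glia-like cells in both libraries, where 6.64% of 8916 starts were. Among these 4, the Ccn1 start had 91 and 60 of its 167 control fragments in clusters 1 and 3. In the Ikzf1/4 library it had 22 and 42 of 86 there. It thus reached 100 fragments only through the cells in which it is high. Yap1, which did not pass by gene window, gave 3.24 (2.26 to 4.67) and 2.7 (1.57 to 4.51) at its start. These are above the ratios of its whole window, which includes the start, though in the Ikzf1/4 library the intervals overlap. The gene body without the start was not counted. Amotl2 moved the other way, to 1.82 (1.5 to 2.22) and 2.62 (2.01 to 3.39). The Ankrd1 start, with its 2 TEAD letter matches, held 5 fragments in the 682 Ikzf1/4 cells and 0 in the 1868 control cells, too few to be counted. Its levels were 0.568 CPM (0.1845 to 1.326) and 0 CPM (0 to 0.2734), with intervals that overlap. The Tead2 start had 39 fragments in all cells, too few to be counted, and went the other way from its window, which is shared with Cd37. Its ratio of Muller glia-like to other cells was 6.74 (2.89 to 17.5) in the control library and 1.68 (0.17 to 8.82) in the other, and its ratio between the libraries was 0.46 (0.192 to 0.994), against 1.11 (0.936 to 1.32) for the window.

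**Figure D5:**
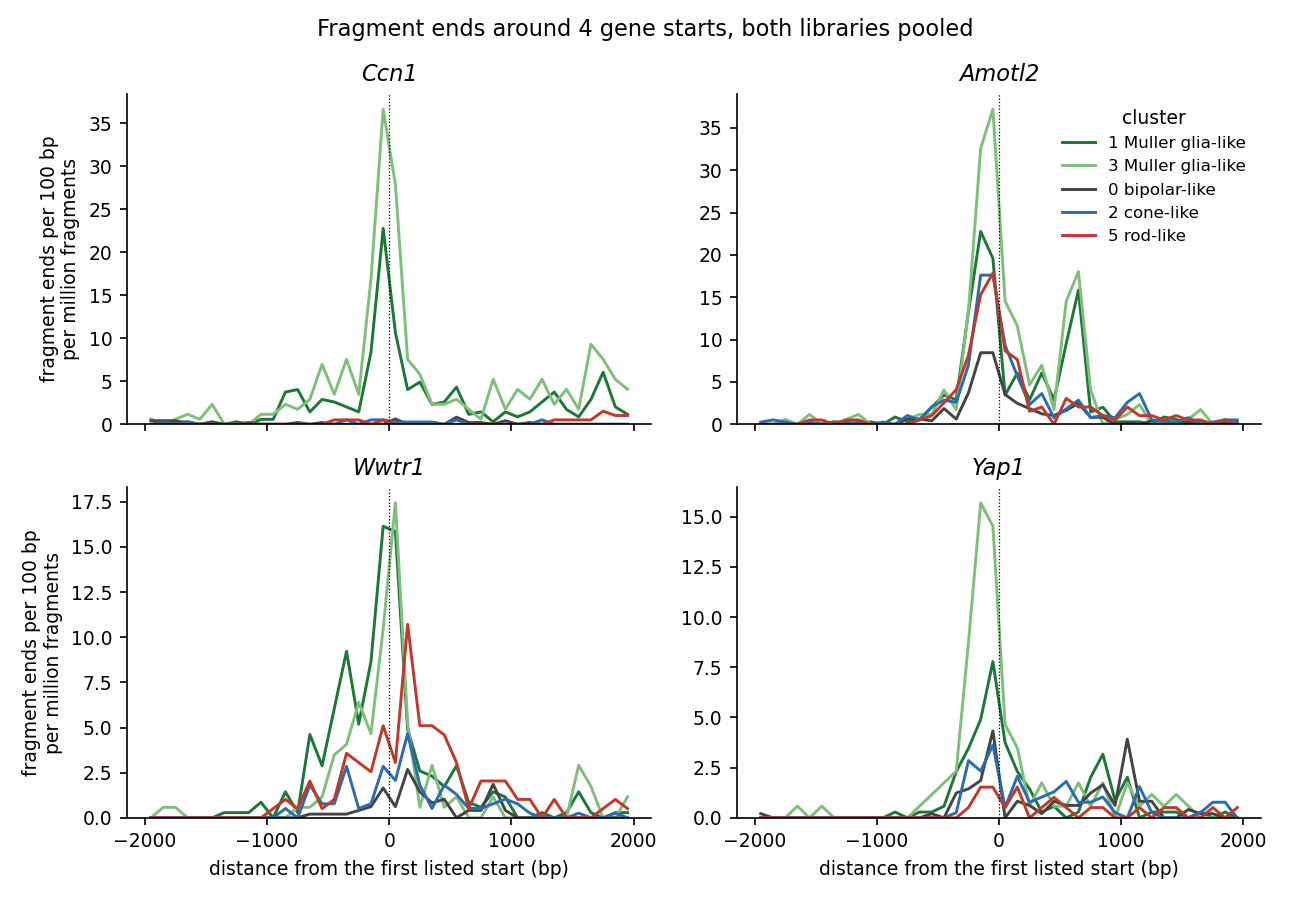
Fragment ends (CPM), in bins of 100 bp, from 2000 bp before to 2000 bp after the first listed start of 4 genes, in 5 clusters with both libraries pooled. Ccn1 has a peak at the start only in clusters 1 and 3 of those drawn (22.8 and 36.6), and Amotl2 has a shared peak and a later one in clusters 1 and 3. The highest Wwtr1 bin lies 100 to 200 bp after the start in clusters 0, 2 and 5 (13, 18 and 21 ends). In clusters 1 and 3 it lies within 100 bp of the start (56 and 30 ends).

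Between the libraries, 0 of the 9 counted windows were past 1.5-fold over all cells, where 5.84% of 16297 windows were (2.11% higher and 3.73% lower in the Ikzf1/4 library), and the median ratio over all windows was 1.067. Ccn2 had 216 fragments, or 16 CPM, in the control library. In the Ikzf1/4 library it had 101 fragments, or 11.5 CPM, and the ratio was 0.717 (0.56 to 0.912). Within cluster 1 the Ccn2 ratio was 1.1 (0.725 to 1.62) and within cluster 3, from 89 fragments, 1.49 (0.949 to 2.32). In the other clusters compared between libraries the Ccn2 ratio rests on 4 to 17 fragments, at 0.918 (0.253 to 2.8) in cluster 0, 0.137 (0.00316 to 0.964) in cluster 2, 0.57 (0.106 to 3.06) in cluster 4 and 1.24 (0.0993 to 64.9) in cluster 5. The share of Muller glia-like cells was 33.7% in the control library and 18.9% in Ikzf1/4 cells, and its part in the ratio over all cells was not tested. The windows of all 8 Muller glia markers were also below 1 over all cells, from 0.713 (Slc1a3) to 0.972 (Apoe). Ccn1 (0.923), Amotl2 (0.951), Wwtr1 (0.954), Yap1 (0.968) and Tead1 (1.02) had intervals that include 1.

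Tead3 was the window with the highest ratio of the 9, with 48.3 CPM in control cells against 69.9 in Ikzf1/4 cells, which gives 1.45 (1.29 to 1.62). It was past the fold in the bipolar-like cluster 0, at 1.68 (1.27 to 2.23), and in the cone-like cluster, at 1.64 (1.3 to 2.09), where 6.23% (3.84% higher) and 5.7% (3.37% higher) of windows were. In the rod-like cluster 5, 0 of the 4 counted windows were past the fold, where 7.82% were (6.03% higher), and in the bipolar-like cluster 4 the 1 counted window, Tead1, was not, where 10.7% were (8.56% higher and 2.15% lower). In the Muller glia-like clusters 1 and 3 the Tead3 ratio was 0.973 and 1.1. Within 500 bp of the first listed Tead3 start, where no other listed gene lies, the ratio over all cells was 1.62 (1.35 to 1.94), past the fold, as 8.49% of 8916 starts were. Rod-like cells, in which the control level of the Tead3 window was highest (80.4 CPM), were 5.03% of control and 19.9% of Ikzf1/4 cells. The part of that difference in the ratio over all cells was not tested.

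Within cluster 3, Ccn1 went from 123.5 to 224.8 CPM, a ratio of 1.82 (1.42 to 2.33), and 1 of the 6 counted windows, this one, was past 1.5-fold, where 16.8% of 4146 windows were (11.8% higher and 4.97% lower). In cluster 3 Tead1 gave 1.35 (1.11 to 1.64), Wwtr1 1.4 (1.04 to 1.89) and Amotl2 1.3 (1.04 to 1.6). The median over all windows there was 1.113, and 77.8%, 81.8% and 72.6% of windows had a lower ratio than these genes. Tead2, with 40 fragments there and so not counted, went the other way at 0.314 (0.096 to 0.804). In cluster 1 the Ccn1 ratio was 1.25 (0.952 to 1.64) and 0 of 8 counted windows were past the fold, where 9.64% were (5.31% higher). Of the 7 counted Muller glia markers 1 was past the fold in cluster 3, Kcnj10 at 1.77 (1.36 to 2.3), and their median was 1.204, with Glul at 1.01 and Rlbp1 at 1.07. Gfap went from 24 to 66 fragments there, a ratio of 6.04 (3.74 to 10.1), and the other astrocyte marker, Pax2, had 36 fragments in the control library and 10 in the Ikzf1/4 one. With fewer than 100 fragments neither was counted. The part of these in the Ccn1 ratio was not tested. Whether the cells of cluster 3 are of the same kind in both libraries was not tested. Median fragments per cell in cluster 3 were 4345 in the control library and 7158 in Ikzf1/4 cells.

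Of the other signature targets, 8 of 18 windows were over 1.5-fold in Muller glia-like cells in both libraries and 0 were lower, where 7.41% of all windows were higher and 18.3% lower, at a median ratio of 1.53 in the control library and 1.59 in Ikzf1/4 cells. Their ratios in the control were 4.08 (3.38 to 4.92) for F3, 2.49 (1.74 to 3.56) for Ccdc80, 2.39 (2.11 to 2.7) for Crim1, 1.87 (1.62 to 2.14) for Dock5, 1.86 for Ptpn14, 1.64 for Myof and 1.59 (0.933 to 2.68) for Foxf2. The eighth was Tgfb2, at 1.66 in the control library and 2.75 (2.37 to 3.2) in Ikzf1/4 cells. Among these 8, Foxf2 had 40 control and 35 Ikzf1/4 fragments outside the Muller glia-like cells. Foxf2 thus met the minimum of 100 fragments only with those of the cells in which it is high. Of the Hippo list 6 of 25 windows were over 1.5-fold in both and 2 were lower, against the same shares. Among the higher were Ajuba at 3.63 and 3.09, Amot at 2.73 and 3.47 and Vgll3 at 1.59 and 2.56. The lower were the kinase genes Taok3 at 0.545 and 0.514 and Stk4 at 0.628 and 0.636. Amot and Amotl2, genes of the same family of YAP-binding proteins, thus shared a direction, while the third, Amotl1, gave 0.688 and 0.963.

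Over the 15 sums of at least 50 cells of a cluster in a library, the windows most like that of Ccn2 by Pearson correlation of log2(CPM + 1) were Etnppl (0.971), Col9a1 (0.966), Hmga2 (0.964), Flt1 (0.963) and Trpm3 (0.963). Those most like Yap1 were Me3 (0.883), Ddah1 (0.871), Adcyap1r1 (0.86), Sspo (0.854) and Epha5 (0.848). Among the 10 genes the values with Ccn2 were 0.9 for Ccn1, 0.784 for Amotl2 and 0.701 for Wwtr1, against 0.017 for Tead3 and -0.405 for Tead2. These sums share libraries and clusters, so the correlations describe likeness only.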

How the data were processed

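Per the submitters' processing notes salmon and DESeq2 were used, and the deposited library files hold estimated counts per Ensembl transcript, used here for depth only. For each gene the table deposited by the authors gives a mean normalised signal, the log2 fold change and its standard error, the Wald score, and p-values before and after adjustment. Its median standard error was 0.049 for the genes of lowest mean and 0.172 from a mean of 100, so its fold changes may be shrunk. The salmon, DESeq2 and annotation versions are not given in these sources. A pairing of transcripts with genes was not among the sources used here. The planned edgeR test per gene was therefore replaced by the authors' deposited DESeq2 test, with a threshold of 0.05. Intervals of fold changes are 95% normal intervals from those errors.

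The multiome fragments were made by cellranger-arc 2.0.1 on mm10, per the file headers, and their deposited counts are read pairs per unique fragment. Cells had at least 3000 fragments and a gene-end enrichment of at least 4, below the top 1% of their library, and no other doublet caller was run. Counts in windows of RefSeq GRCm38.p6 genes were reduced to 20 components and clustered with leidenalg 0.10.2 (15 neighbours, resolution 0.8). Clusters were named from fixed marker lists. Ratios carry 95% exact conditional binomial intervals and levels exact Poisson intervals, tested on simulated data. The ATAC-seq peak lists, whose build is not settled, and the RNA of single cells were not used here. The value columns of the deposited table belong to the comparison, with 0 left unassigned.

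All 10 members were named, with up to 5 genes per direction of each list by adjusted p and the 5 windows most like Ccn2 and Yap1. Some relatives of these genes, and some list genes by their retinal windows, were named beside them. Members and lists were chosen with earlier results of these data known.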

Additional observations from a re-analysis of the deposited data

Results flagged for a closer look

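The Tead1 window was flagged because its ratio between the libraries lay on opposite sides of 1 in different clusters. The Ikzf1/4 library was above the control in the bipolar-like cluster 0, at 1.25 (95% counting interval 1.07 to 1.45, from 144.2 to 180.3 CPM), and in the Muller glia-like cluster 3, at 1.35 (1.11 to 1.64, from 237.7 to 321.4 CPM). It was below the control in the cone-like cluster 2, at 0.813 (0.693 to 0.953, from 190.3 to 154.8 CPM), and in the bipolar-like cluster 4, at 0.684 (0.492 to 0.953, from 89.8 to 61.4 CPM). The median ratio over all windows was not 1 but 1.058 in cluster 0, 1.113 in cluster 3, 1.046 in cluster 2 and 1.105 in cluster 4. In that order of clusters, 81.4%, 77.8%, 10.5% and 2.7% of windows had a lower ratio than Tead1. The interval of cluster 3 reaches the median there. The difference between clusters was not tested, since each group is 1 library, and over all cells the Tead1 ratio was 1.02 (0.959 to 1.09).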

How the results depend on the processing

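Requiring an absolute log2 fold change over 1 beside the adjusted p left 1 of the 10 genes called in fibroblasts, Ccn2, and 0 genes of the Hippo list and 0 other targets. The 3 further settings (an adjusted p under 0.01, adjustment over all genes with a raw p, and genes with a mean of at least 100 only) each called 5 of the 10 genes, 11 to 15 of the Hippo list and 10 or 11 other targets. The share of all tested genes called was not counted at these settings, so the counts cannot be set against a background. Leaving out replicates, DESeq2 and edgeR on gene counts and no low-count filter were not run. The deposited table has no values per library, and the library files were not summed to genes. No paired analysis was possible because no source pairs the transcripts of the library files with genes. Between the retinal libraries the number of windows past 1.5-fold was 0 with at least 1000 fragments per cell, all barcodes, read pairs or scaling to gene windows. It was 1 with at least 10000 fragments, and 1 with 500 bp around starts, 1 within cluster 0, 1 within cluster 2 and 1 within cluster 3. Past the fold were 8.49% of all starts, and 6.23%, 5.7% and 16.8% of all windows in clusters 0, 2 and 3. The number over 1.5-fold in Muller glia-like cells in both libraries was 5 of 9 windows at the resolutions 0.5 and 1.2. It was 4 of 5 around starts, where 6.64% of all starts were. The starts are another set, since Tead1 and Ccn2 have no listed start and Yap1 passed by its start only. As given above, the Ccn2 window and the Ccn1 start reached 100 fragments only with those of the cells in which they are high. At the other retinal settings the share of all windows was not counted. Depth limits Ankrd1 (48 fragments), Tead2 in Muller glia-like cells of the Ikzf1/4 library (14 fragments) and all values of amacrine-like cells there (3 cells).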
